A study of Mus musculus with 8 samples.

Results

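The genes described here encode the proteins of the cytosolic ribosome. They were taken as the probe sets whose annotation gives a single symbol of the form Rps or Rpl with a digit, or Rpsa, Rplp0, Rplp1 or Rplp2, without the kinases of the Rps6k family, pseudogene symbols and Rps4l. Where a gene had several such probe sets, the one with the highest mean over the 8 arrays stood for it. This gave 49 genes of the 18193 with a single-symbol probe set. The filter on low values, at the median over all probe sets, was passed by 46 of these 49 genes and by 11189 genes in all. The samples were splenocytes, the cells of the spleen, from male C57/BL6 mice, with 1 Affymetrix 430 2.0 array per mouse. There were 2 HMGA1a transgenic mice (TG) aged 12 months, 2 wild-type mice (WT) aged 12 months, 2 TG mice aged 2 months and 2 WT mice aged 2 months. Per the study's design text the WT mice were littermates, and lymphoid tumours were established in TG mice at the later age and not yet present at the earlier one. HMGA1a belongs to the high mobility group proteins, which bend DNA and help other factors reach chromatin. The promoter and cell type that drive the transgene are not given in the sources used here. No single-symbol probe set was named Hmga1, so its level was not analysed here.

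Each ribosome has a small subunit, which reads the mRNA, and a large subunit, which joins amino acids. Each ribosomal protein is needed in about equal number with its partners, and the mRNAs of these proteins are among the most abundant in dividing lymphoid cells. Their genes often begin transcription within a stretch of pyrimidines, and mRNAs that start with such a stretch, called TOP mRNAs, are translated under the control of the kinase mTOR. The MYC transcription factors raise the output of ribosomal protein genes and of the factors that assemble ribosomes.

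The 49 genes comprised 22 of the large subunit, 21 of the small subunit, 5 paralogs that resemble a ribosomal protein (Rpl3l, Rpl7l1, Rpl22l1, Rpl39l and Rps27l) and Rps19bp1. The last encodes a nucleolar protein that binds Rps19 and is not itself a ribosomal protein, though its symbol meets the rule. The filter was not passed by 3 genes. The heart and skeletal muscle paralog Rpl3l had signals of 17.4 and 19.4 in TG mice and 8.53 and 14.0 in WT mice at 12 months. The paralog Rpl39l, known from testis, had 46.2 and 23.3 in TG mice against 32.0 and 38.1 in WT mice at 12 months. The probe set of Rps16, a small subunit protein, had signals between 0.843 and 6.01 on the 8 arrays. A further 28 ribosomal protein symbols, those of Rpl3, Rpl5, Rpl10 and Rplp1 among them, were found only on probe sets with several symbols and stood for no gene. Ribosomal protein genes have many processed pseudogenes, and 32 of the 49 chosen probe sets carry a name suffix that marks possible binding to related transcripts, so a value can mix the gene with its copies.

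Promoter sequence from RefSeq (GRCm38.p6) was held for 44 of the 49 genes, in 52 entries. The window shown runs from 30 bases before the annotated start of transcription to 20 bases from it. The letters CTTTC, a short pyrimidine run, were looked for on both strands of this window. They were present on the gene's strand in 12 of the 52 entries (23.1%), against 6.86% of all 32851 entries in the table, and their reverse complement GAAAG in 5.77% against 6.0%. The motif and the window were chosen after the sequences were seen. The next lines print 5 genes that hold the motif, in capitals: Rplp2 of the stalk that recruits elongation factors (chr7:141447621-141447670, plus strand), Rpl38 (chr11:114668550-114668599, plus strand), Rps10 (chr17:27635225-27635274, minus strand), Rpl12 (chr2:32961682-32961731, plus strand) and Rps27 (chr3:90213629-90213678, minus strand). They also print the 3 genes with the smallest p-values between TG and WT mice at 12 months, which hold no match: Rps27l (chr9:66946056-66946105, plus strand, the first of its 2 entries), Rps19bp1 (chr15:80264287-80264336, minus strand) and Rpl11 (chr4:136053374-136053423, minus strand).
Rplp2: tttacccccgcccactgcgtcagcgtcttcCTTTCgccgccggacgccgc
Rpl38: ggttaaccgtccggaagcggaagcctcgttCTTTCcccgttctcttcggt
Rps10: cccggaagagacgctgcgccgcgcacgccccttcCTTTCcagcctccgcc
Rpl12: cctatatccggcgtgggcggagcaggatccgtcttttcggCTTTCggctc
Rps27: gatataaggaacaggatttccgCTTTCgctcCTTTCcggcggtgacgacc
Rps27l: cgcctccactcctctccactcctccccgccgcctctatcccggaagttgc
Rps19bp1: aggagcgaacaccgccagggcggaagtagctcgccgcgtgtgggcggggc
Rpl11: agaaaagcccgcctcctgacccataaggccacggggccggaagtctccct
In Rplp2 and Rpl38 the match begins at the annotated start itself. Among genes past the filter, the 11 with the motif had a median log2 fold change between TG and WT mice at 12 months of 0.30, and the 30 with an entry and no match had 0.24.

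At 12 months the ribosomal protein genes had higher values in TG than in WT spleens as a block, by a small amount that no gene's test passed and that depended in size on how the arrays were scaled. All 46 genes had a mean log2(signal + 16) above that of WT mice, against 45.2% of all genes tested. Their median log2 fold change was 0.24, with a range of 0.02 to 0.52, and the median over all genes was -0.03. Comparing the mice of the same replicate number gave a median of 0.20 for replicate 1, with 46 genes higher in TG, and 0.25 for replicate 2, with 43 higher. Both pairs were higher in 43 genes, against 26.9% of all genes. The sign of the family median held under quantile scaling and under cyclic loess scaling, at 0.08 and 0.11, but 38 and 37 of the 46 genes were then higher in TG, against 46.6% and 48.4% of all genes. More cells of a type and more RNA per cell cannot be told apart in these bulk samples.

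**Figure D1:**
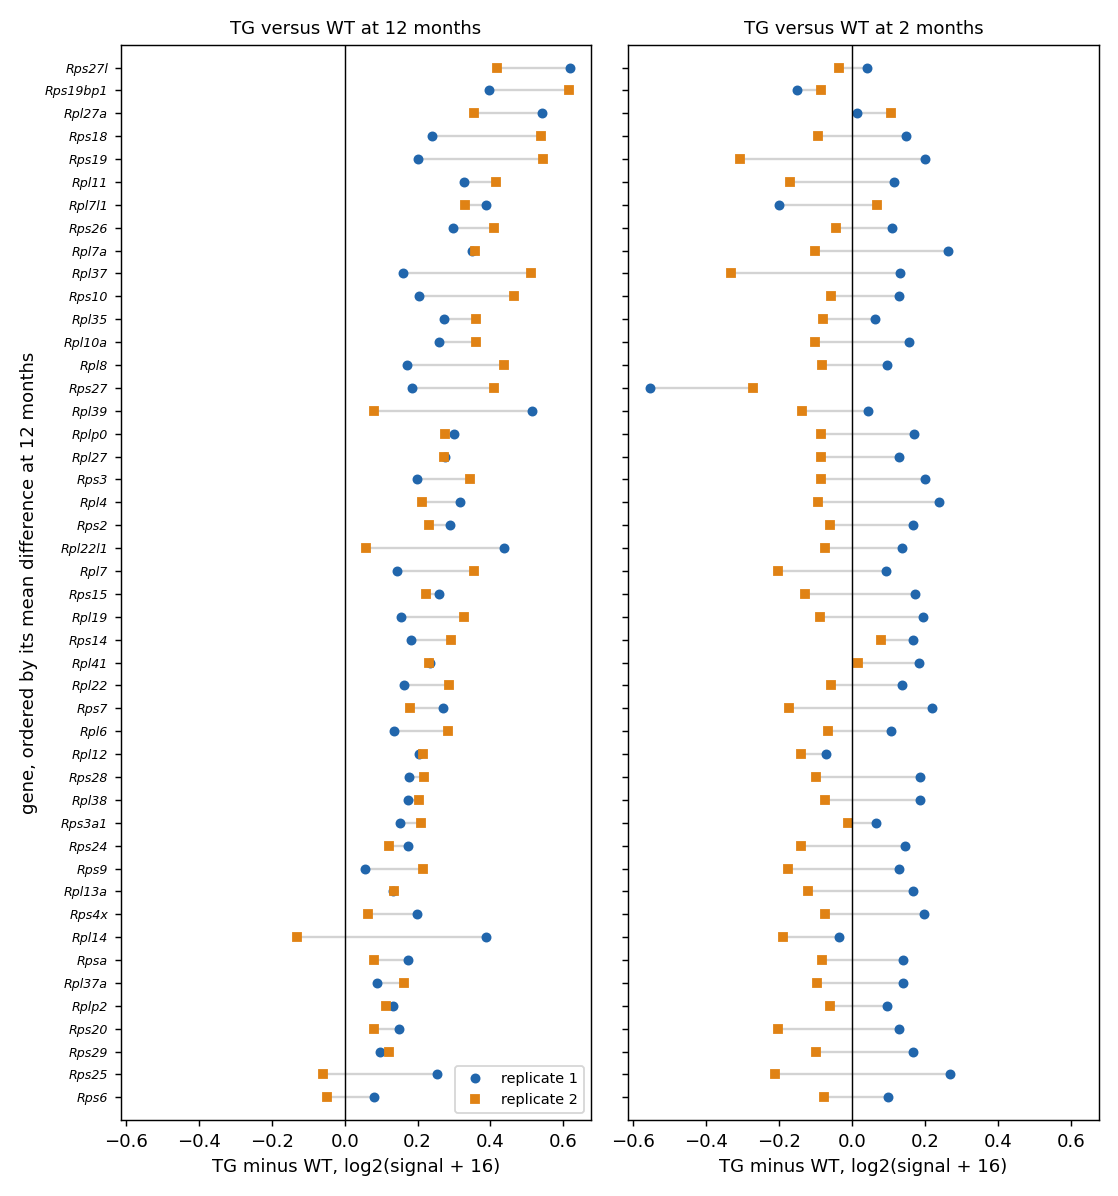
Difference between the TG and the WT mouse of the same replicate number in log2(signal + 16), on the horizontal axis, for each of the 46 ribosomal protein genes, one row per gene, at 12 months (left) and 2 months (right). Circles are replicate 1 and squares replicate 2; at 12 months 43 genes lie above 0 in both, and at 2 months 3 do, in values as deposited.

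None of the 46 genes passed the threshold of 0.05 on the adjusted p of limma, as was so for 0% of all genes at 12 months (0 of 11189). At an unadjusted p under 0.05, 865 genes of all and 2 of the 46 were counted. These 2 genes, Rps27l and Rps19bp1, were higher in TG, against 2.59% of all genes. Blocking on the replicate number let 5 genes of all (0.0447%) pass and none of the 46, whose smallest adjusted p was 0.106. In that fit 15 of the 46 had an unadjusted p under 0.05, all of them higher in TG, against 7.26% of all genes that were higher at that level. Both TG values lay above both WT values in 8 of the 46 genes (17.4%), against 14.3% of all genes. This share was near the background on the deposited scale. The 8 genes were Rpl10a, Rpl11, Rpl22l1, Rpl37, Rpl7l1, Rps19, Rps19bp1 and Rps27l. Under quantile scaling the count was 13 (28.3%), against 15.2% of all genes, and under cyclic loess scaling 8 (17.4%), against 16.1%. No gene of the 46 had both TG values below both WT values, against 19.9% of all genes.

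Rps27l, a paralog of Rps27 whose transcription p53 can activate, had the smallest p of the 46. Its signal was 1879 and 1814 in TG mice and 1219 and 1355 in WT mice at 12 months, and both TG values were above both WT values. The means were 1847 ± 45.9 in TG and 1287 ± 96.1 in WT (SD, n = 2 each), and the log2 fold change was 0.52 ± 0.18 (SE; limma, adjusted p = 0.591). The gene has 3 probe sets past the filter, and their log2 fold changes ran from 0.45 to 0.52. Under quantile and cyclic loess scaling the log2 fold change of Rps27l was 0.46 and 0.48. At 2 months its signal was 1370 and 1553 in TG mice and 1330 and 1594 in WT mice, so that the groups overlapped.

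Rps19bp1, which binds Rps19 and in human cells regulates the deacetylase SIRT1, gave 159 and 206 in TG mice against 117 and 129 in WT mice at 12 months. The groups did not overlap, and the log2 fold change was 0.50 ± 0.21 (SE; limma, adjusted p = 0.627). Under quantile and cyclic loess scaling it was 0.54 and 0.55. At 2 months the order was the other way, with 134 and 122 in TG mice and 150 and 131 in WT mice, and a log2 fold change of -0.12 ± 0.21 (SE; limma, adjusted p = 1.00).

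The other 2 paralogs past the filter had the same order at 12 months. Rpl22l1, the paralog that Rpl22 represses in mice, had 4138 and 3864 in TG mice against 3052 and 3708 in WT mice, without overlap. Rpl22 itself, whose loss in mice blocks the development of alpha-beta T cells, had 8119 and 12384 in TG mice against 7253 and 10158 in WT mice, with overlap between the groups. Rpl7l1, a paralog of Rpl7 with a part in large subunit assembly, had 542 and 470 in TG mice against 410 and 371 in WT mice, without overlap. The log2 fold changes of its 3 probe sets past the filter ran from 0.07 to 0.74. The 3 paralogs had a median log2 fold change of 0.36, which was 0.37 under quantile scaling and 0.38 under cyclic loess scaling. Each of these medians is the value of 1 gene, Rpl7l1. The log2 fold change of Rpl22l1 moved to 0.15 and 0.16 under these scalings, beside 0.25 as deposited.

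**Figure D2:**
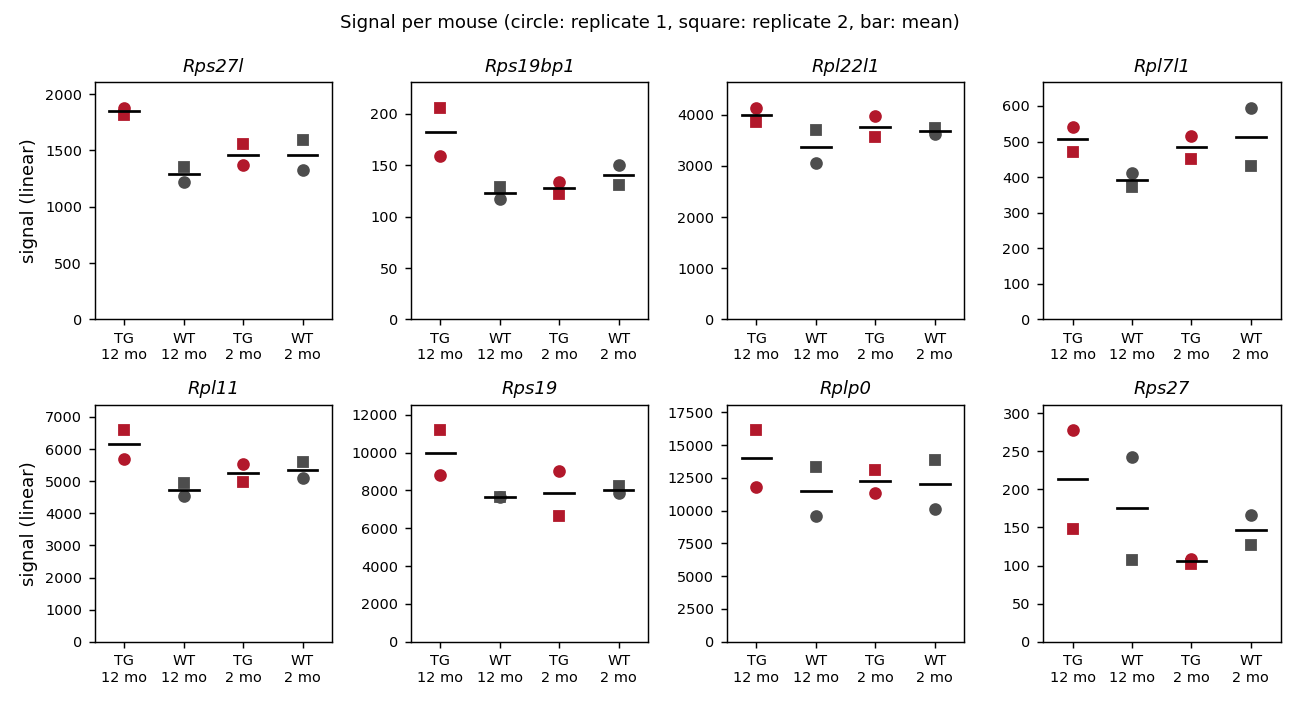
Linear signal per mouse for 8 genes, each panel with its own vertical axis starting at 0; groups run TG and WT at 12 months, then TG and WT at 2 months, and bars mark means of 2 mice. At 12 months the TG points of Rps27l, Rps19bp1, Rpl22l1, Rpl7l1, Rpl11 and Rps19 lie above both WT points, while those of Rplp0 and Rps27 overlap them.

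Of the large subunit, 22 of 22 genes had higher values in TG at 12 months as deposited, and 19 under quantile and under cyclic loess scaling. The median log2 fold change was 0.26 as deposited, with a range of 0.12 to 0.45, and 0.11 and 0.13 under these scalings. Rpl11, which with Rpl5 and the 5S RNA forms the particle that can bind and inhibit Mdm2, had 5702 and 6588 in TG mice against 4541 and 4935 in WT mice. The groups did not overlap, and the log2 fold change was 0.37 ± 0.19 (SE; limma, adjusted p = 0.699), and 0.25 under quantile and 0.26 under cyclic loess scaling. Rplp0, which anchors the P stalk, had 11814 and 16135 in TG mice against 9598 and 13337 in WT mice. Rplp2 of the same stalk had 10006 and 16381 in TG mice against 9118 and 15133 in WT mice. For both stalk genes the difference between the replicates was larger than that between TG and WT. Rpl13a, which in human cells also takes part in interferon-gamma dependent control of translation, had 13335 and 20369 in TG mice against 12169 and 18544 in WT mice, with the same overlap. Rpl39, a small protein of the exit tunnel, had 215 and 116 in TG mice against 145 and 109 in WT mice, which also overlapped.

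Of the small subunit, 20 of the 20 genes past the filter had higher values in TG at 12 months as deposited, 15 under quantile scaling and 14 under cyclic loess scaling. The median log2 fold change was 0.21 as deposited, with a range of 0.02 to 0.39, and 0.041 and 0.067 under these scalings. Rps19, the gene most often mutated in human Diamond-Blackfan anaemia, had 8795 and 11183 in TG mice against 7644 and 7656 in WT mice, without overlap. Its log2 fold change was 0.37 ± 0.23 (SE; limma, adjusted p = 0.744), and 0.15 under quantile and 0.24 under cyclic loess scaling. Rps24, another gene of that disease, had 11248 and 13569 in TG mice against 9972 and 12469 in WT mice, with overlap. Rps14, whose loss in human del(5q) syndrome impairs red cell formation, had 11548 and 18903 in TG mice against 10187 and 15437 in WT mice. The X-linked Rps4x had 11427 and 13918 in TG mice against 9948 and 13307 in WT mice. In Rps14 and Rps4x too, each replicate 2 mouse lay above both replicate 1 mice. Rpsa, which also serves as a laminin receptor, had 10744 and 14730 in TG mice against 9521 and 13920 in WT mice. Rps6, the target of S6 kinase, had the smallest difference of the 46, with 522 and 386 in TG mice against 492 and 400 in WT mice. Rps27, the partner paralog of Rps27l, had 278 and 148 in TG mice against 242 and 107 in WT mice. In Rpsa, Rps6 and Rps27 the TG and WT values overlapped. The chosen probe sets of Rps6 and Rps27 are among 8 past the filter with a mean signal under 1000, where 34 genes had means over 4000. Whether such dim probe sets measure the whole mRNA of their gene was not tested. Of 18 genes listed for Diamond-Blackfan anaemia, 11 were tested, and the median over those 11 was 0.30 with 11 higher in TG and none past the test. That median was 0.13 under quantile and 0.17 under cyclic loess scaling.

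Under quantile scaling 8 of the 46 genes, and under cyclic loess scaling 9, turned to lower values in TG at 12 months: Rpl13a, Rpl37a, Rplp2, Rps20, Rps24, Rps4x, Rps9 and Rpsa under both, and Rps29 under the second. The lowest of their log2 fold changes was -0.09. Higher values in TG within both replicates were found for 27 of the 46 under either scaling, instead of 43, against 28.1% of all genes under quantile and 29.4% under cyclic loess scaling. Both TG values lay above both WT values in 13 genes (28.3%) under quantile scaling, against 15.2% of all genes, and in 8 (17.4%) under cyclic loess scaling, against 16.1%.

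Most ribosomal protein genes lie at the bright end of these arrays, where the 2 replicates differed. The highest signal of an array was 13794 to 16610 on the 4 replicate 1 arrays and 20868 to 23841 on the 4 replicate 2 arrays. Relative to each gene's own mean, the median of the 46 genes was -0.10 and 0.43 in TG mice and -0.29 and 0.14 in WT mice at 12 months, replicate 1 before replicate 2. At 2 months it was -0.13 and 0.07 in TG mice and -0.27 and 0.16 in WT mice. The 34 genes with a mean signal over 4000 had a median difference of 0.46 between replicate 2 and replicate 1, and 33 of them were higher in replicate 2. The 8 genes past the filter with a mean under 1000 had -0.26, with 2 higher in replicate 2. They were Rpl12, Rpl14, Rpl39, Rpl7l1, Rps19bp1, Rps25, Rps27 and Rps6, with signals of 97.0 to 595. These limits of signal were set after the data were seen. The median log2 fold change between TG and WT at 12 months was 0.24 for the 34 genes, 0.39 for the 4 genes between these limits and 0.25 for the 8. Within replicate 1 it was 0.19, 0.49 and 0.32 for these classes in the same order, and within replicate 2 it was 0.25, 0.39 and 0.15. The genes that turned lower in TG under quantile scaling (8) and cyclic loess scaling (9) all had a mean over 4000. Rpl27a differed most between replicates: at 12 months it had 896 and 2989 in TG mice against 611 and 2333 in WT mice, replicate 1 before replicate 2. Quantile and cyclic loess scaling can shrink a difference shared by most bright genes of an array, whatever its source. The part of array scaling in the family's difference was therefore not tested.

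**Figure D3:**
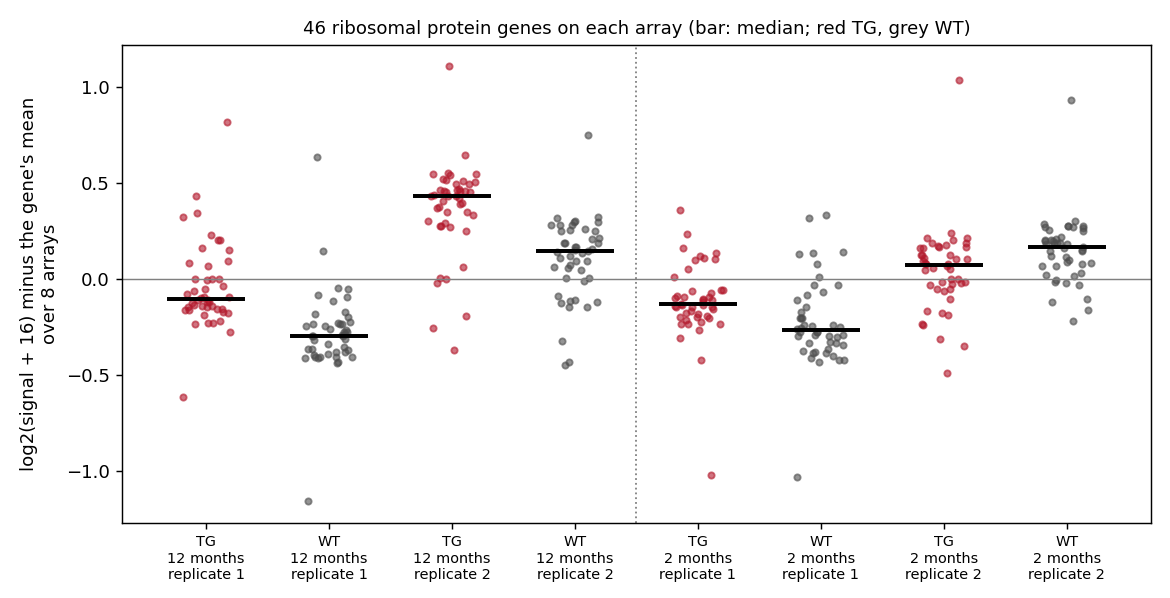
Each point is one of the 46 ribosomal protein genes on one array, as log2(signal + 16) minus the gene's mean over the 8 arrays (vertical axis); bars are medians, and arrays run in TG and WT pairs by age and replicate. In every pair but that of replicate 2 at 2 months the TG median is the higher, and the replicate 2 arrays have the higher medians at both ages, for values as deposited.

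Leaving out single mice moved the median at 12 months widely. Without the replicate 2 TG mouse it was -0.01, and without the replicate 1 WT mouse 0.01. Without the replicate 1 TG mouse it was 0.50, and without the replicate 2 WT mouse 0.46. In the fit with the replicate number as a block, the same 4 omissions gave 0.16 to 0.30. For fits that left 1 mouse in a group only effect sizes are given.

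The comparison at 12 months was also made over every probe set of the family. The 91 probe sets of the 49 genes that passed the filter had a median log2 fold change of 0.25 at 12 months, 85 of them above 0 and 81 above 0 within both replicates. Of the 45 that stood for no gene, 39 were above 0. Of 20 genes with several probe sets past the filter, 15 had every probe set above 0. The 4 probe sets of Rpl41, the smallest ribosomal protein, lay between -0.43 and 0.23, and the 3 of Rpl22 between -0.30 and 0.37. Another 95 probe sets past the filter carry 1 ribosomal protein gene together with unnamed or pseudogene copies, and their median was 0.20 with 84 above 0.

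Other genes of protein synthesis were set beside the family at 12 months. The 45 ribosome production factors tested, which process ribosomal RNA and assemble the subunits, had a median log2 fold change of 0.30, with 38 higher and 7 lower in TG and none past the test. The median of the 31 translation initiation and elongation factors was 0.29, with 29 higher and none past the test. The 76 mitochondrial ribosomal proteins, which serve the ribosome of the mitochondrion, had a median of 0.15, with 63 higher and none past the test. Fau, a ribosomal protein gene under another symbol, had 0.13 as deposited and -0.03 under quantile scaling. Quantile and cyclic loess scaling left the production factors at 0.24 and 0.25, the translation factors at 0.20 and 0.21 and the mitochondrial ribosomal proteins at 0.17 and 0.18, where the 46 cytosolic genes stood at 0.08 and 0.11. No test compared these lists with one another.

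**Figure D4:**
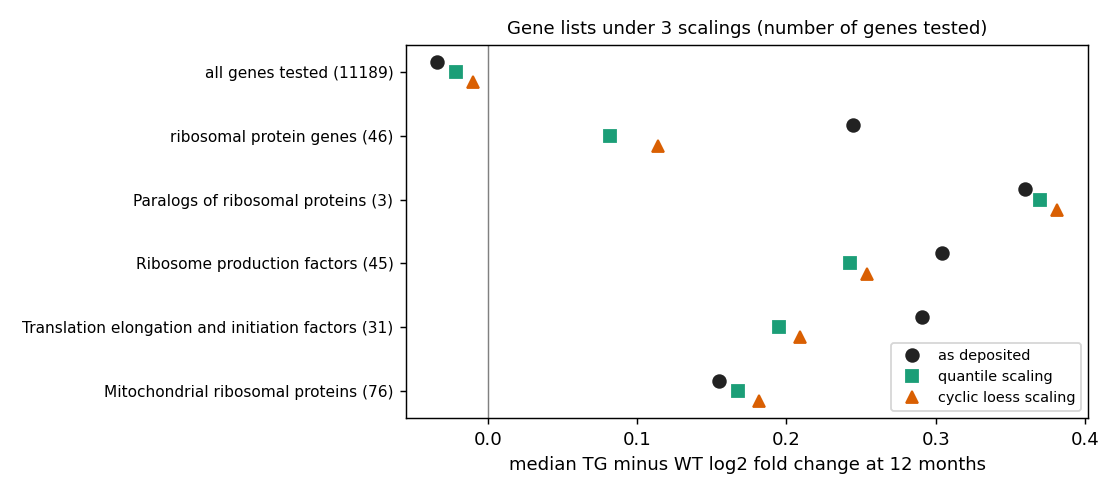
Median log2 fold change between TG and WT mice at 12 months (horizontal axis) of 6 gene sets, one per row with its number of genes, under the deposited scale (circles), quantile scaling (squares) and cyclic loess scaling (triangles). The 46 ribosomal protein genes move from 0.24 to 0.08 and 0.11 between scalings. The median of the 3 paralogs, 0.36 to 0.38, is the value of Rpl7l1 under each scaling. Rpl22l1 moves from 0.25 to 0.15 and 0.16, and Rps27l from 0.52 to 0.46 and 0.48.

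Markers of several spleen cell types had different levels in the groups at 12 months, and their part in the family's difference was not tested. The summed signal of 11 T cell markers was 4997 to 9462 in TG mice and 3729 to 4696 in WT mice. The sum of 11 B cell markers was 13724 to 25286 in TG mice and 20472 to 27603 in WT mice, and that of 9 neutrophil markers 9295 to 21037 in TG mice and 5797 to 10123 in WT mice. The sum of 11 macrophage and monocyte markers was 22449 to 30443 in TG mice and 31591 to 34079 in WT mice, and that of 7 dendritic cell markers 3287 to 3308 in TG mice and 4595 to 5149 in WT mice. The T cell, macrophage and dendritic cell sums did not overlap between TG and WT mice, while the B cell and neutrophil sums did. The median T cell marker had a TG minus WT difference of 1.01 on the log2 scale within replicate 1 and -0.11 within replicate 2, and 4 of the 11 were without overlap. Plasma cell and erythroid sums also overlapped between the groups, at 19140 to 24712 in TG against 17099 to 23843 in WT and 7718 to 11001 in TG against 9489 to 9860 in WT. Exocrine pancreas markers summed to 551 to 602 in TG mice and 513 to 700 in WT mice at 12 months, and to 12611 in the replicate 1 WT mouse at 2 months. At that age the other WT mouse had 467 and the TG mice 490 to 791. The array with 12611 enters the comparison at 2 months, the difference of the TG effects and age in WT mice. Its part in those results was not tested. No marker in any list was under a signal of 16 on all 8 arrays. The 3′ to 5′ ratio of the Gapdh control was 0.843 and 1.21 in TG mice and 1.25 and 1.73 in WT mice at 12 months, and that of the beta-actin control 1.20 and 1.10 in TG mice and 1.48 and 1.31 in WT mice. The groups overlapped in neither ratio, and the part of RNA quality in the family's difference was not tested.

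At 2 months the family's direction differed between the replicates and between scalings. The replicate 1 WT mouse of this age had the high exocrine pancreas sum given above, whose part was not tested. The median log2 fold change was 0.02, with 33 of the 46 genes higher in TG against 52.5% of all genes, and it was -0.02 with 18 higher under quantile scaling (52.8% of all genes) and 0.02 with 32 higher under cyclic loess scaling (51% of all genes). Within replicate 1 the median was 0.14 and 41 genes were higher in TG, and within replicate 2 it was -0.09 and 4 were higher. Both pairs were higher in 3 genes, against 27.2% of all genes. Under quantile scaling both pairs were higher in 8 of the 46, against 27.8% of all genes, and under cyclic loess scaling in 22, against 26%, with medians of 0.03 within replicate 1 and 0.01 within replicate 2. None of the 46 passed the limma test (0 of 11189 genes in all, 0%), and none had an unadjusted p under 0.05, where 44 of all genes did. No gene had both TG values above both WT values, against 10.1% of all genes, and 1 had both below, against 7.83%. That gene was Rps27, with 108 and 103 in TG mice against 167 and 127 in WT mice and a log2 fold change of -0.41 ± 0.39 (SE; limma, adjusted p = 1.00).

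The other genes named at 2 months had small differences. Rps14, with a log2 fold change of 0.12 ± 0.34, Rpl41, with 0.10 ± 0.35, and Rpl7a, with 0.08 ± 0.31, had the smallest p-values on the higher side (SE; limma, adjusted p = 1.00 for each). Rpl37, with -0.10 ± 0.21 (SE; limma, adjusted p = 1.00), was the third on the lower side after Rps27 and Rps19bp1. Rplp0, Rplp2, Rpl11, Rps19, Rps24, Rpsa, Rps6, Rpl22, Rpl22l1, Rpl39, Rpl7l1, Rps4x and Rpl13a lay between -0.07, in Rpl7l1, and 0.06, in Rps4x. The paralogs Rps27l, Rpl22l1 and Rpl7l1 had a median of 0.00 at 2 months. The 45 ribosome production factors had a median of 0.06 with 31 higher in TG, the 31 translation factors 0.04 with 20 higher and the 76 mitochondrial ribosomal proteins 0.06 with 55 higher, none of them past the test.

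The difference between TG and WT mice at 12 months minus that at 2 months was above 0 in all 46 genes, against 43.7% of all genes, with a median of 0.22. It was 0.06 within replicate 1, where 37 genes were above 0, and 0.35 within replicate 2, where 46 were. The median stayed above 0 at 0.09 under quantile scaling and 0.08 under cyclic loess scaling. Of the 46 genes 41 and 34 were then above 0, against 44.8% and 47.4% of all genes. None of the 46 passed the limma test (0 of all 11189 genes), and none had an unadjusted p under 0.05, where 213 of all genes did. With the block none of the 46 passed either (0% of all genes), but 5 had an unadjusted p under 0.05, each of them above 0, against 2.6% of all genes. Rps19bp1 had the smallest p, with a difference of 0.62 ± 0.29 (SE; limma, adjusted p = 1.00), followed by Rps27l with 0.51 ± 0.25 and Rpl11 with 0.40 ± 0.27.

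Between the ages within TG mice, 45 of the 46 genes were higher at 12 than at 2 months, against 43.7% of all genes, with a median log2 fold change of 0.18. This median was 0.04 within replicate 1 and 0.32 within replicate 2. Under quantile scaling it was 0.02, with 34 genes higher, against 43.9% of all genes. Under cyclic loess scaling it was 0.07, with 40 higher, against 46.9%. One gene of all (0.00894%) and none of the 46 passed the limma test, and none of the 46 had an unadjusted p under 0.05, where 528 of all genes did. With the block 21 genes of all (0.188%) and none of the 46 passed, and 5 of the 46 had an unadjusted p under 0.05, each higher at 12 months, against 4.51% of all genes. Both 12-month values lay above both 2-month values in 6 of the 46 (13.0%), against 10.3% of all genes, and below in none, against 17.4%. The 6 were Rpl11, Rps18, Rps19bp1, Rps24, Rps27 and Rps27l. Rps27 had 278 and 148 at 12 months and 108 and 103 at 2 months in TG mice, a log2 fold change of 0.85 ± 0.39 (SE; limma, adjusted p = 1.00). Rps19bp1 and Rps27l had 0.45 ± 0.21 and 0.34 ± 0.18, and Rpl39 alone was lower at 12 months, at -0.06 ± 0.32.

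Within WT mice the median log2 fold change between the ages was -0.03 on the deposited scale. At 12 months 16 of the 46 genes were higher, against 51.4% of all genes. Under quantile scaling the median was -0.062 with 9 genes higher, and under cyclic loess scaling -0.0021 with 22 higher. Of all genes 50.1% were higher under either scaling, and the 22 (47.8%) lay near that share. None of the 46 passed the limma test (0 of all 11189 genes), and none had an unadjusted p under 0.05, where 171 of all genes did. With the block none passed (0% of all genes), and 2 of the 46 had an unadjusted p under 0.05, both lower at 12 months, against 2.4% of all genes. By subunit, 13 of the 20 small subunit genes were higher at 12 months as deposited, 7 under quantile scaling and 14 under cyclic loess scaling. Of the 22 large subunit genes 3 were higher as deposited, with 2 and 8 under those scalings, and none of the 3 paralogs was higher under any of them. Both 12-month values lay below both 2-month values in 7 of the 46 (15.2%), against 10.9% of all genes, and above in none, against 12.7%. The 7 were Rpl11, Rpl14, Rpl37, Rpl39, Rpl7l1, Rps19 and Rps19bp1. Under quantile scaling 14 of the 46 lay below without overlap, against 1297 of 11189 genes, and 1 above, against 1333. Under cyclic loess scaling 7 lay below, against 1305 of all genes, and 2 above, against 1337. The same 12-month WT mice enter the comparison of TG with WT at that age. Rpl7l1 had 410 and 371 at 12 months and 595 and 430 at 2 months in WT mice, a log2 fold change of -0.36 ± 0.21 (SE; limma, adjusted p = 1.00). Rpl39 had -0.41 ± 0.32 and Rpl12, at the base of the stalk, -0.25 ± 0.23. On the higher side Rps27 had 0.14 ± 0.39, Rps25 0.07 ± 0.19 and Rps14 0.10 ± 0.34.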

How the data were processed

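Total RNA of splenocytes from 8 male mice was hybridised to 1 array each, and groups and replicate numbers come from the sample titles. The deposited values are linear probe set intensities made with GCOS 1.4 and MAS5, per the submitters' processing notes. In the deposited table the trimmed mean of every array was 150.001 (0.02 of values left out at each end), so each array had been scaled by 1 factor. The table held 45101 probe sets, 34945 of them with 1 symbol.

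The tests ran on log2(signal + 16), and probe sets under the median mean value (a signal of 45.3) were dropped. limma 3.58.1 in R 4.3.3 (lmFit, and eBayes with an intensity trend) fitted 4 group means to 8 arrays, with 4 residual degrees of freedom and no block. All tests were 2-sided, with Benjamini-Hochberg adjustment across the 11189 genes and a threshold of 0.05. The fit was tested on simulated data. The 2 arrays per group limit the precision.

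The replicate number marks a shared difference: replicate 2 minus replicate 1 correlated across genes between every pair of the 4 groups (Pearson r 0.464 to 0.654 over 6 pairs). Values within each replicate are therefore given, and counts from the blocked fit where they differ. The SE and adjusted p printed for single genes come from the fit without the block, so they include this replicate difference. At 12 months the median SE of the 46 genes was 0.29 without the block and 0.12 with it. In each comparison the 3 genes with the smallest p per direction are named, with genes of a known role at both ages. The genes, lists and rules were chosen with earlier results of these data known. Alternatives were other scalings, pseudocounts, filters and probe set choices, no intensity trend, the block, and leaving out each mouse.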

Additional observations from a re-analysis of the deposited data

Results flagged for a closer look

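Of the 46 genes, 3 had TG values above WT values in both replicate pairs at 12 months and below them in both pairs at 2 months. Of all 11189 genes, 26.9% were higher in both pairs at 12 months, and 2706 were lower in both pairs at 2 months. The share of all genes with both traits was not counted, so the 3 genes are not set against a background. For Rps19bp1 the difference between the ages was 0.62 on the log2 scale, for Rps27 0.71 and for Rpl12 0.31. At 12 months Rpl12 had signals of 273 and 375 in TG mice against 235 and 321 in WT mice, and at 2 months 294 and 318 in TG mice against 310 and 352 in WT mice, so the groups overlapped at both ages. In the limma test of the difference itself the adjusted p was 1.00 for each of them. All 3 have mean signals under 1000.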

How the results depend on the processing

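No setting that used all 8 mice brought any of the 46 genes past the test. The replicate block left the 12-month median at 0.24 and changed no call of the 46 in any comparison. Under quantile scaling, blocked or not, the 12-month median was 0.082, and under cyclic loess scaling 0.11. Within both replicates 27 genes were then higher in TG under each, against 28.1% and 29.4% of all genes. Both TG values lay above both WT values in 13 genes (28.3%) under quantile scaling, against 15.2% of all genes. Under cyclic loess scaling they did so in 8 (17.4%), against 16.1%, a share near the background. The median of 12 against 2 months in WT mice was -0.062 under quantile scaling, -0.0021 under cyclic loess scaling, -0.046 when probe sets of a gene were averaged and -0.068 with probe sets named by digits and _at alone. Rpl41 at 2 months was -0.095 when averaged and -0.27 on the latter probe sets. Leaving out each mouse gave medians of -0.0092 to 0.50 at 12 months (0.16 to 0.30 with the block, where 0 to 2 genes passed), -0.19 to 0.24 at 2 months, -0.031 to 0.48 for the difference, -0.078 to 0.45 for age in TG mice and -0.24 to 0.20 for age in WT mice. The same omissions turned the sign of some single genes: at 2 months Rps14 ran from -0.11 to 0.36, Rpl41 from -0.18 to 0.38, Rpl7a from -0.24 to 0.40 and Rpl37 from -0.32 to 0.12. For age, Rpl39 in TG mice ran from -0.46 to 0.34, and in WT mice Rps27 from -0.39 to 0.68 and Rps14 from -0.20 to 0.40. The cause of these moves was not tested. The 2 mice per group set the precision of every value.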
